A study of Mus musculus with 6 samples.

Results

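The genes described here encode the proteins of the cytosolic ribosome of the mouse. They were chosen by symbol alone (Rpl or Rps with a number, Rplp0 to Rplp2, and Rpsa), which took 89 of the 55291 gene rows, 53 named for the large subunit and 36 for the small subunit. Of these, 83 are annotated as protein coding in GENCODE M21. The other 6 (Rpl32l, Rpl6l, Rps12l1, Rps3a2, Rps3a3 and Rps4l) are annotated as processed pseudogenes, copies of an mRNA that were inserted back into the genome. The rule also takes duplicated genes with their own promoter, such as Rpl22l1 and Rps27l, and passes over genes of ribosomal components with other symbols, of which Fau, Rpl36al and Rack1 are given separately.

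RNA sequencing covered 6 libraries of RAW 264.7, a mouse macrophage-like line derived from ascites that forms osteoclasts, the multinucleated cells that resorb bone, under the cytokine RANKL. The shUSP8 group (n = 3) carried a short hairpin RNA against Usp8, a deubiquitinase of endosomes, and the shCtrl group (n = 3) carried a control hairpin. Both groups had been kept with RANKL at 50 ng/mL for 4 days, so neither represents undifferentiated cells. The sources used here give neither the hairpin sequences nor a statement that libraries stem from separate cultures. The p-values therefore measure only how much these libraries vary, and that variation may be technical.

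Ribosomal proteins are needed in matched amounts, since nearly all of them occur once in each ribosome, apart from the stalk proteins Rplp1 and Rplp2. Their mRNAs are among the most abundant of growing cells, and most begin with a C followed by a run of pyrimidines, the 5′ terminal oligopyrimidine (TOP) motif, through which the kinase complex mTORC1 and the RNA-binding protein Larp1 control their translation. Free ribosomal proteins, Rpl5 and Rpl11 above all, can bind Mdm2 and stabilise p53. Osteoclasts form by fusion of precursors and make large amounts of secreted proteases and proton pumps.

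Start regions of a few of these genes are shown because the motif is known from most of their mRNAs. The gene with the largest fall, Rpl22l1, lacks it at its annotated start, as did most of the genes searched. Each line holds 30 bases of the mouse reference (RefSeq, GRCm38.p6), 10 before the annotated transcription start and 20 from it on, read 5′ to 3′ on the strand of the gene. The motif searched was a C followed by at least 4 bases that are each C or T, on the gene's strand only. Capitals mark 1 match per window, the one that begins at the annotated start where there is one, and otherwise the first within 10 bases of it; pyrimidines next to the capitals were left in lower case. In Rps27, Rpl14, Rpl35a and Rps6 a match begins at the annotated start. In each of them the pyrimidine run also reaches back before the start, further in Rpl14 and Rpl35a than in Rps27 and Rps6. In Rpl22l1 the marked match lies after the start and in Rpl27a it spans the start. In Rps27l the marked match lies before the start, and another, unmarked, follows just after it.
Rpl22l1: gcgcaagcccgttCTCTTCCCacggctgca
Rpl27a: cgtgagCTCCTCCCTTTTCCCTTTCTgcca
Rpl14: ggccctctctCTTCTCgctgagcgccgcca
Rpl35a: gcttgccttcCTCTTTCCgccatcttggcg
Rps6: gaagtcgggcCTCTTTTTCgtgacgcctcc
Rps27: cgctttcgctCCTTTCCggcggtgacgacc
Rps27l: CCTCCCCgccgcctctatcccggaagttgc
The windows lie at chr3:28805498-28805527 (plus strand) for Rpl22l1, chr7:109519185-109519214 (plus) for Rpl27a, chr9:120571507-120571536 (plus) for Rpl14 and chr16:33056472-33056501 (plus) for Rpl35a. Those of the small subunit genes lie at chr4:86857348-86857377 (minus) for Rps6, chr3:90213629-90213658 (minus) for Rps27 and chr9:66946076-66946105 (plus) for Rps27l. Of the 89 genes, 64 had an entry in the promoter table. The tract began at an annotated start in 14 of these 64 (21.9%), against 813 of all 27025 symbols in the table (3.01%). It began within 10 bases of a start in 40 of 64 (62.5%), against 9297 of 27025 (34.4%). Annotated starts can lie some bases away from the start that a cell uses, so a missing match says only that these letters are not at the annotated base.

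Facts of the whole series that bear on these genes were few. Libraries held 19973522 to 20213939 expected counts each. Usp8 was far lower in every shUSP8 library, with 656, 720 and 718 expected counts, than in the shCtrl libraries, with 2785, 2561 and 2645 (log2 fold change -2.00, SE 0.06; edgeR quasi-likelihood adjusted p = 1.47e-10). The estimated mean fragment length set library shUSP8_2 apart, at 369 nt against 302 ± 6.94 nt over the other 5 libraries (SD, n = 5). Long fragments are counted less often from short transcripts, and ribosomal protein mRNAs are short, so results are given below with and without that library, and with gene-by-library offsets for effective length (the number of positions from which a fragment could come). Macrophage and osteoclast markers also moved with the group. Of 10 macrophage markers 6 were called higher (60%, against 17.8% of all genes tested) and 3 lower (30%, against 14.9%). The lower ones were Cd68, Csf1r and Spi1. The summed level of the 10 was 6459 to 7047 CPM (counts scaled to library size) in shUSP8 against 5029 to 5217 CPM in shCtrl. Lyz2 alone averaged 2699 CPM in shUSP8 and 853 CPM in shCtrl. Without Lyz2 the sum was slightly lower in every shUSP8 library than in any shCtrl library. Of 10 osteoclast markers none was called higher and 5 lower (50%, against 14.9% of all genes tested). Their sum was 11207 to 11562 CPM in shUSP8 against 13487 to 13912 CPM in shCtrl. Markers of other cell types summed to 9.57 to 10.5 CPM in shUSP8 and 7.49 to 15.8 CPM in shCtrl. Of the 5 tested, 2 were called higher (40%, against 17.8% of all genes tested) and none lower. These 2 were Lck (log2 fold change 0.87; edgeR adjusted p = 0.00391) and S100a8 (1.03; 0.0468). S100a8, at 0.258 to 0.878 CPM, lost its call without any 1 library other than shUSP8_2 (edgeR adjusted p up to 0.159). Cd3e, Ms4a1, Elane and Ly6g were among those at 0 in all libraries. The part of these shifts in the ribosomal protein values was not tested. In bulk RNA, fewer cells of a type and less RNA per cell cannot be told apart.

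Transcripts of ribosomal protein genes were modestly lower in shUSP8 cells, in both subunits, and none was called higher. Of the 83 genes with enough counts to be tested, 28 were called lower in shUSP8 (33.7%; edgeR quasi-likelihood test, adjusted p under 0.05), where 14.9% of all 12440 genes tested were called lower and 17.8% higher. The median log2 fold change of the 83 genes was -0.22, against -0.0049 over all genes tested. Fitted values lay below 0 for 81 of the 83 genes and ranged from -1.003 (Rpl22l1) to 0.03 (Rps18). That count depends on the scale. It was 77 with effective-length offsets and 56 on log2(TPM + 1), where the median of all genes was 0.12. In CPM, all shUSP8 values lay below all shCtrl values for 40 of the 83 genes (48.2%), where 23.1% of all genes tested did so, and no ribosomal protein gene lay wholly above, where 24.6% of all genes did.

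**Figure D1:**
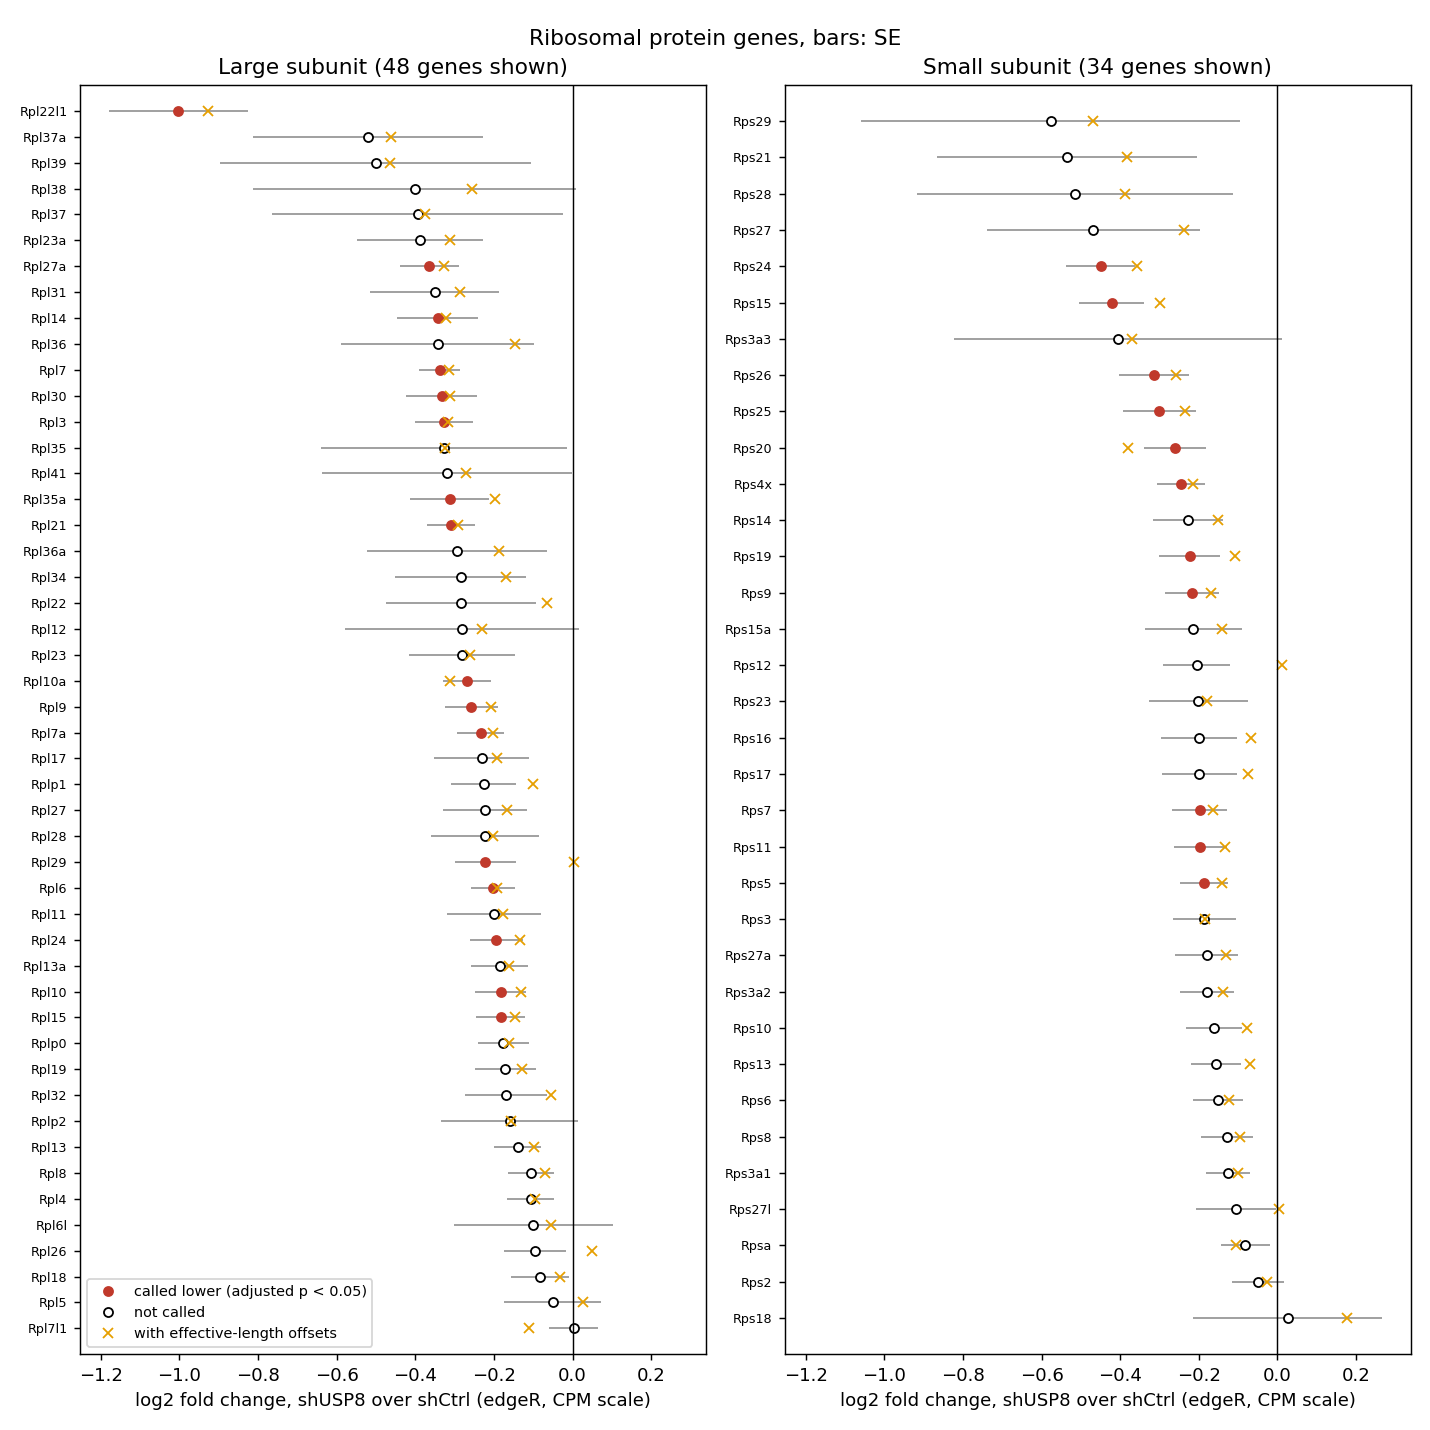
Fitted log2 fold change (x axis, shUSP8 over shCtrl) of the ribosomal protein genes tested (1 is not shown), by subunit, with its SE (bars), filled where the gene was called lower; crosses give the value with effective-length offsets. Rpl22l1 stands apart at -1.003, and nearly all genes lie below 0. Genes with wide bars include Rps29, Rps28 and Rpl39, and also Rpl35 and Rpl12, whose mean effective lengths are 599 and 813 nt.

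The values of the subunits were close to each other, and the difference between them was not tested. Of 49 large subunit genes 17 were called lower (34.7%), with a median log2 fold change of -0.23. Of 34 small subunit genes 11 were called lower (32.4%), with a median of -0.20. The summed TPM of the large subunit over that of the small subunit was 1.34, 1.26 and 1.31 in shUSP8_1, shUSP8_2 and shUSP8_3, and 1.31, 1.281 and 1.29 in shCtrl_1, shCtrl_2 and shCtrl_3. The ratios overlapped between the groups. As a share of all expected counts, the 89 genes took 4.81%, 4.01% and 4.41% in the shUSP8 libraries and 4.74%, 4.82% and 5.06% in the shCtrl libraries, a mean of 4.41 ± 0.398% against 4.87 ± 0.166% (SD, n = 3 each). shUSP8_1 lay among the shCtrl values on this scale. As a share of TPM, which is scaled by effective length, the 89 genes took 13.75%, 13.51% and 13.51% in shUSP8 and 14.16%, 13.87% and 14.28% in shCtrl, so that all 3 shUSP8 libraries lay below all 3 shCtrl libraries, by little (means 13.6 ± 0.138% and 14.1 ± 0.212%).

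The size of the fall differed among the 3 shUSP8 libraries. The median over the 83 genes of the log2 ratio of CPM to the shCtrl mean was -0.07 in shUSP8_1, -0.43 in shUSP8_2 and -0.22 in shUSP8_3, and -0.05, -0.02 and 0.08 in shCtrl_1, shCtrl_2 and shCtrl_3. shUSP8_1 was thus close to shCtrl_1, while shUSP8_2 was the lowest of the 6. In shUSP8_2 the median fall was deepest in short transcripts. Over the 28 genes with effective lengths of 61.6 to 282 nt its median was -0.65, and over the 28 genes of 546 to 1872 nt it was -0.35. The same medians were -0.25 and -0.19 in shUSP8_3, and -0.07 and -0.09 in shUSP8_1. Spearman's rho of the CPM ratio with effective length across the 83 genes was 0.03 in shUSP8_1, 0.42 in shUSP8_2 and 0.19 in shUSP8_3. It was 0.25 in shCtrl_1, above that of shUSP8_3, -0.08 in shCtrl_2 and -0.20 in shCtrl_3. These values are a description across genes of 1 library each, which share their counting.

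**Figure D2:**
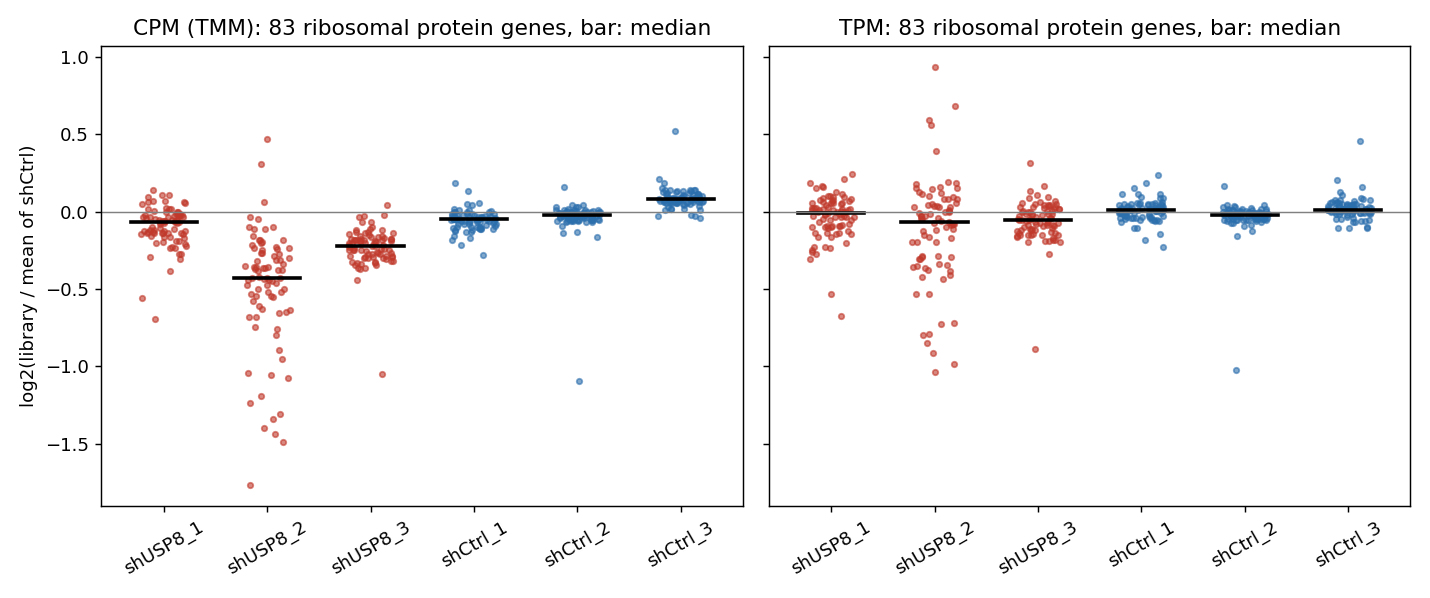
Log2 ratio of each library to the mean of the shCtrl libraries for 83 ribosomal protein genes (points) from CPM (left) and TPM (right), with the median as a bar. From CPM the medians are -0.07, -0.43 and -0.22 in shUSP8_1 to shUSP8_3, and from TPM they are -0.01, -0.07 and -0.06.

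**Figure D3:**
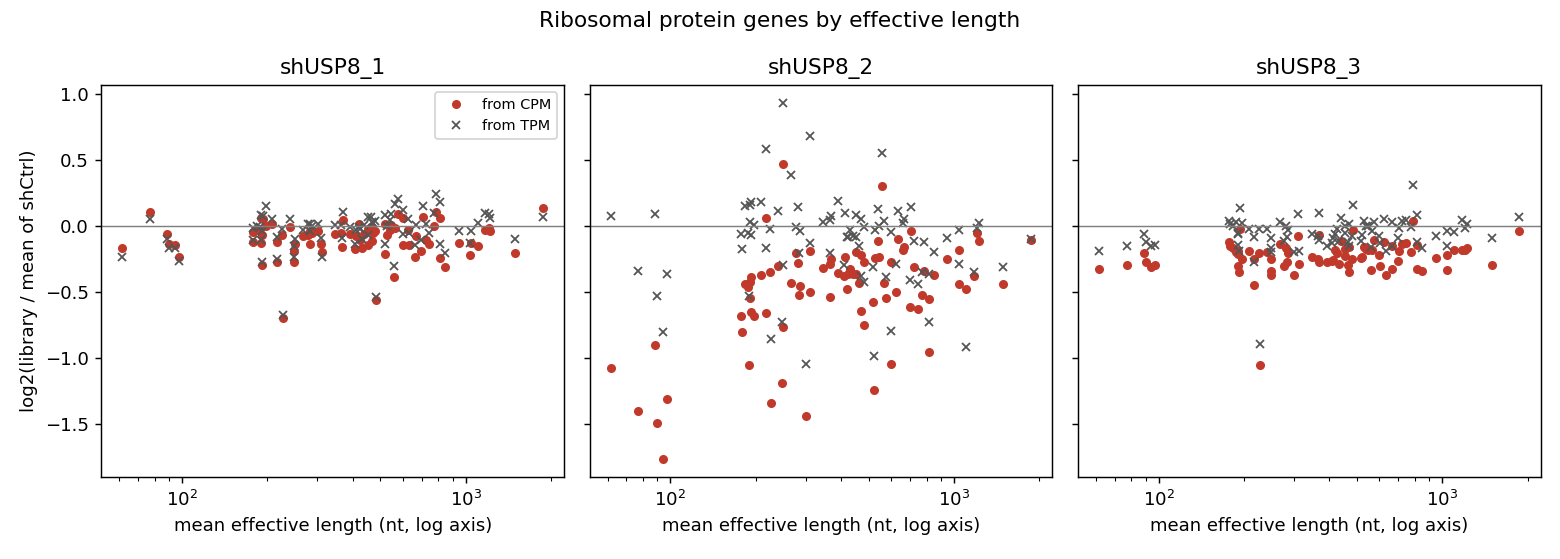
Log2 ratio of each shUSP8 library to the shCtrl mean (y axis) against the mean effective length of the gene in nt (x axis, log scale), from CPM (dots) and from TPM (crosses). In shUSP8_2 on the CPM scale the 28 shortest genes have a median of -0.65, and some longer genes, such as Rpl35 at -1.04, lie lower than that.

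With effective-length offsets, 19 of the 83 genes were called lower (22.9%) and none higher, where 9.86% of the 12220 genes that had an offset were called lower and 12.1% higher. The median was then -0.17, -0.19 in the large subunit (12 lower) and -0.14 in the small (7 lower). With shUSP8_2 left out and no offsets, 26 genes were called lower and the median was -0.14, where 14.8% of all genes were called lower. With both, 24 were called lower and the median was -0.16, where 9.75% of all genes were called lower. Leaving out shUSP8_1 raised the count to 49 (59.0%), where 16.5% of all genes were called lower. Leaving out shCtrl_1 brought it to 14 (16.7%, against 11.1% of all genes) and leaving out shCtrl_2 to 13 (15.5%, against 9.81%). It was 10 without shUSP8_3 (11.9%, against 10.5% of all genes) and 10 without shCtrl_3 (12.05%, against 10.3%), shares near those of all genes. With library totals as the only scaling 13 were called lower (15.7%), where 9.42% of all genes were called lower and 25% higher.

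On the deposited TPM scale little of this remained as calls. limma on log2(TPM + 1) called 4 of the 83 genes lower (Rpl22l1, Rpl7, Rps21 and Rps24) and none higher, a share of 4.82% where 4.06% of the 11565 genes tested were called lower and 19.3% higher. The median over the ribosomal protein genes was -0.04 and that over all genes was 0.12, a distance of -0.16, close to the -0.17 seen with offsets. With the mitochondrial genome, of which mt-Atp8 alone took 4.27% to 7.69% of TPM, left out of the TPM total, 8 genes were called lower, where 5.61% of all genes were. The groups did not overlap in TPM for 18 genes that were lower in shUSP8 (21.7%), where 9.12% of all genes tested were wholly lower, and for 3 that were higher (Rpl13, Rpl18 and Rps27l), where 33.8% of all genes were wholly higher.

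Rpl22l1 was lower than in shCtrl by more than any other gene of the set. It is a paralog of Rpl22, both proteins of the large subunit, and in mice Rpl22 protein is known to bind the Rpl22l1 mRNA and lower its level. It is found on the plus strand of chromosome 3 (GRCm38), between 28805436 and 28807424. It had 174.3, 154.1 and 150.4 TPM in the shUSP8 libraries, against 258.3, 283.9 and 292.4 TPM in the shCtrl libraries. Every shUSP8 value lay far below the lowest shCtrl value. In CPM it averaged 29.2 ± 6.52 in shUSP8 and 58.4 ± 6.49 in shCtrl (SD, n = 3 each), with a fitted log2 fold change of -1.003 and an SE of 0.18 (edgeR adjusted p = 0.00871). With offsets the value was -0.93 (edgeR adjusted p = 4.76e-04), and on log2(TPM + 1) it was -0.80. The call held with each library left out in turn, with values from -1.18 to -0.86.

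Rpl22 itself was not called. Its TPM was 1246, 1124 and 1135 in shUSP8 and 1075, 1149 and 1133 in shCtrl, and the groups overlapped (log2 fold change on CPM -0.28, SE 0.19; edgeR adjusted p = 0.33; -0.06 with offsets). Rpl22l1 TPM amounted to 14.0%, 13.7% and 13.2% of Rpl22 TPM in the shUSP8 libraries and to 24.0%, 24.7% and 25.8% in the shCtrl libraries. This per-length ratio was nearly constant within each group and the groups were far apart. The mean was 13.6 ± 0.374% against 24.9 ± 0.895%, a log2 difference of -0.86 (two-sided exact permutation test over libraries, p = 0.1, the smallest that 3 against 3 can give; 0.167 adjusted over the 5 pairs that could be tested).

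The pairs Rps27 and Rps27l, and Rpl7 and Rpl7l1, differed the other way. Rps27l, a paralog of the small subunit protein Rps27 that p53 induces, stood at 10.1%, 8.77% and 10.2% of Rps27 TPM in shUSP8 and at 8.40%, 8.50% and 7.64% in shCtrl. All 3 shUSP8 ratios lay above all 3 shCtrl ratios, with shUSP8_2 only just above (log2 difference 0.24; exact permutation p = 0.1, adjusted 0.167). Rps27l was not called by itself, with 291, 314 and 303 TPM in shUSP8 and 285, 278 and 265 TPM in shCtrl. Its log2 fold change on CPM was -0.11 (SE 0.10, edgeR adjusted p = 0.471), and without shUSP8_2 this log2 fold change was 0.016. Rps27 had 2882, 3577 and 2975 TPM in shUSP8 and 3398, 3273 and 3472 TPM in shCtrl, so that shUSP8_2 was the highest of the 6. On CPM, however, shUSP8_2 was the lowest of the 6 for Rps27, at 94.7 CPM beside 177.9 and 159.4 in shUSP8_1 and shUSP8_3 and 184.8, 193.4 and 219.4 in shCtrl. Rps27 has the shortest effective length of the genes tested here, 61.6 nt, and its log2 fold change was -0.47 on CPM (SE 0.27; edgeR adjusted p = 0.273).

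Rpl7l1, a homologue of Rpl7 that acts in the maturation of the large subunit, stood at 5.78%, 5.10% and 5.61% of Rpl7 TPM in shUSP8 and at 4.96%, 4.89% and 4.48% in shCtrl. The groups did not overlap (log2 difference 0.20; exact permutation p = 0.1, adjusted 0.167). Rpl7l1 itself was level, with 101.9, 86.4 and 90.3 CPM in shUSP8 and 93.8, 93.4 and 90.7 CPM in shCtrl (log2 fold change 0.0035, SE 0.06; edgeR adjusted p = 0.976), and the difference came with the lower Rpl7.

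Of the remaining pairs, Rpl36al stood at 66.1 ± 6.42% of Rpl36a TPM in shUSP8 and at 64.8 ± 4.17% in shCtrl (log2 difference 0.03; exact permutation p = 0.9). Rpl3l, the muscle paralog of Rpl3, had 24, 7 and 3 counts in shUSP8 and 7, 10 and 14 in shCtrl, too few for the edgeR test. Its ratio to Rpl3 differed by -0.08 on the log2 scale (exact permutation p = 0.9). Paralogs known mainly from testis were next to absent. Rpl10l had 0 counts in all 6 libraries, Rpl39l had 1 count in shCtrl_3 and 0 elsewhere, and Rps4l had 1 count in shUSP8_1 and 0 elsewhere, so these pairs were given no ratio. Rpl32l had at most 2 counts in any library, and Rps12l1 had 17 counts in shUSP8_2 and 0 in the other libraries.

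**Figure D4:**
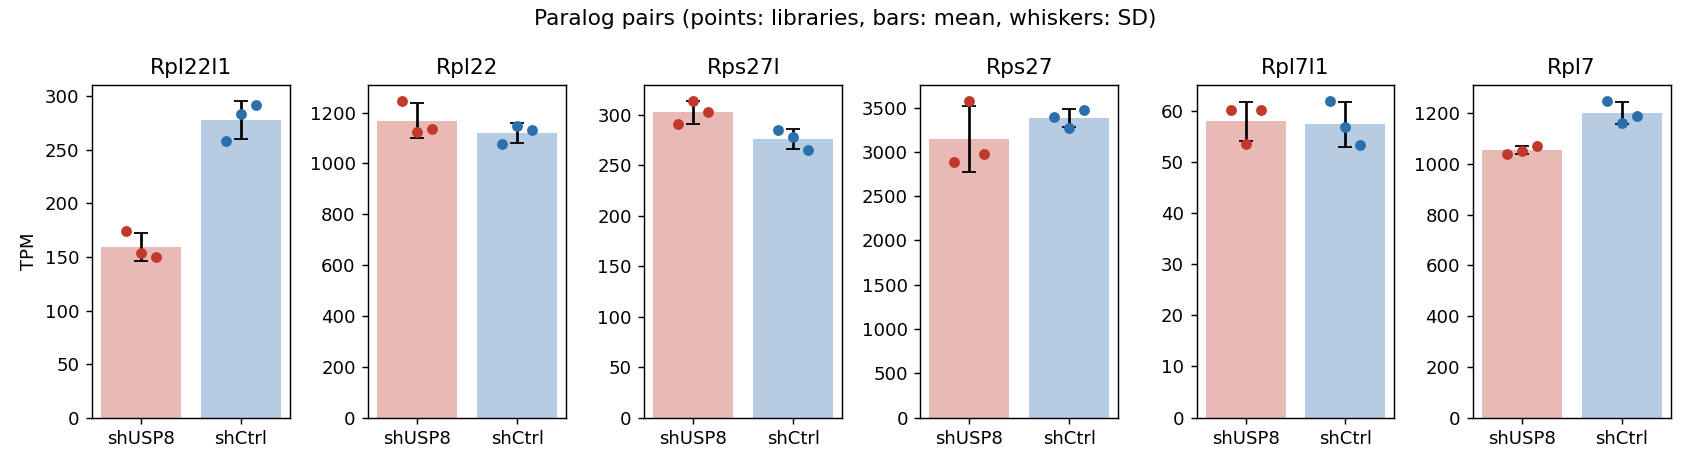
TPM of paralog pairs in each library (points), with the group mean (bars from 0) and SD (whiskers), shUSP8 left and shCtrl right. Rpl22l1 sits at 150.4 to 174.3 TPM in shUSP8, below 258.3 to 292.4 TPM in shCtrl, while Rpl22 overlaps between the groups.

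Below Rpl22l1, the called genes had log2 fold changes of -0.45 to -0.18. Rps24, a small subunit protein mutated in Diamond-Blackfan anaemia in humans, had 614, 471 and 545 CPM in shUSP8 and 731, 714 and 781 CPM in shCtrl. All 3 shUSP8 values lay below all 3 shCtrl values, with shUSP8_2 the lowest (log2 fold change -0.45, SE 0.09; edgeR adjusted p = 0.00352). Rps15, which is needed for export of the small subunit from the nucleus, had 602, 471 and 581 CPM in shUSP8 and 729, 759 and 728 CPM in shCtrl (log2 fold change -0.42, SE 0.08; edgeR adjusted p = 0.00325). Here too shUSP8_2 was the lowest and the groups were apart.

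Rpl7, a protein of the large subunit, had the smallest adjusted p of the set. It had 746, 715 and 728 CPM in shUSP8 and 927, 885 and 954 CPM in shCtrl (log2 fold change -0.34, SE 0.05; edgeR adjusted p = 3.71e-04). The groups were well apart, and shUSP8_2 was no outlier. Rpl27a, whose tract spans its start in the sequence shown above, had 352, 283 and 332 CPM in shUSP8 and 429, 397 and 419 CPM in shCtrl (log2 fold change -0.36, SE 0.08; edgeR adjusted p = 0.00343). Its groups did not overlap, and shUSP8_2 was again the lowest.

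Rpl3, which reaches towards the peptidyl transferase centre, had 625, 537 and 580 CPM in shUSP8 and 727, 665 and 794 CPM in shCtrl (log2 fold change -0.33, SE 0.07; edgeR adjusted p = 0.00567). The groups were apart, but Rpl3 shares its sequence with pseudogene rows that held 66.4% of the counts of the gene and those rows together, so its level is uncertain. Rpl21 (log2 fold change -0.31) and Rpl10a (-0.27), both of the large subunit, were the other members whose call held throughout. The calls of these 8 genes (Rpl10a, Rpl21, Rpl22l1, Rpl27a, Rpl3, Rpl7, Rps15 and Rps24) held in all 6 fits with a library left out and in every other count-based fit tried, offsets included.

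The other 20 calls were lost in at least 1 fit with a library left out. Among the 10 largest falls, that held for 4 genes. Rpl14 (log2 fold change -0.34; edgeR adjusted p = 0.0364) lost its call without shUSP8_3, shCtrl_1, shCtrl_2 or shCtrl_3, with adjusted p-values of 0.0591 to 0.136. Rpl30 (-0.33; 0.0214) lost it without any 1 of the shCtrl libraries (edgeR adjusted p up to 0.0942). Rps26, which lies at the mRNA exit channel (-0.31; 0.0249), lost it without shUSP8_3, shCtrl_1 or shCtrl_3 (edgeR adjusted p up to 0.104). Rpl35a, another gene mutated in Diamond-Blackfan anaemia in humans (-0.31; 0.0452), lost it without shUSP8_3 or any 1 of the shCtrl libraries (edgeR adjusted p up to 0.151) and with offsets (0.079). Values stayed below 0 for all 4 genes in each of these fits. In all, 15 of the 28 genes called lower were also called with offsets.

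Some short genes had lower fitted values than these without passing the test, and in them shUSP8_2 lay far from its own group. Some longer genes were also far lower in that library. In Rpl35 (mean effective length 599 nt) its log2 ratio to the shCtrl mean was -1.04 in CPM and -0.79 in TPM. In Rpl12 (813 nt) the ratios were -0.95 and -0.73. Rps29, a zinc-binding protein of the small subunit, had 5294, 1735 and 4712 expected counts in shUSP8 and 4848, 5525 and 6366 in shCtrl. shUSP8_1 and shUSP8_3 lay within or just below the shCtrl range, and shUSP8_2 held less than the rest (log2 fold change -0.58, SE 0.48; edgeR adjusted p = 0.435; -0.22 without shUSP8_2, adjusted p = 0.299). Rps21, a small subunit protein, had 214, 102 and 206 CPM in shUSP8 and 234, 241 and 279 CPM in shCtrl (log2 fold change -0.53, SE 0.33; edgeR adjusted p = 0.303). In TPM its shUSP8 values were 2264, 2109 and 2466, all below the shCtrl values of 2709, 2597 and 2837, and it was called with offsets (-0.38; edgeR adjusted p = 0.00598) and without shUSP8_2 (-0.26; 0.0151). Rpl23a, Rpl34 and Rps28 were likewise called with offsets and not without them, so that 4 genes gained a call there.

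Both the direction and the call of Rps18 changed with 1 library. It had 3871, 6541 and 3922 expected counts in shUSP8 and 4642, 4470 and 4316 in shCtrl. shUSP8_1 and shUSP8_3 lay below every shCtrl library and shUSP8_2 above them all (log2 fold change 0.03, SE 0.24; edgeR adjusted p = 0.951). Without shUSP8_2 the value was -0.26 (edgeR adjusted p = 0.00163), and with the counts of its pseudogene rows added it was -0.25 (0.0193). Those rows held 74.2% of the counts of Rps18 and its pseudogenes together. The same share was above 20% in 7 tested genes, and it was highest in Rps2, at 95.7%.

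The stalk proteins and the members best known for roles outside the ribosome were not called. Rplp0, Rplp1 and Rplp2, the stalk that recruits elongation factors, had log2 fold changes of -0.18, -0.23 and -0.16 (edgeR adjusted p = 0.0558, 0.0622 and 0.545). Rpl5, which joins Rpl11 and 5S rRNA in the particle that binds Mdm2, had 119.6, 88.0 and 114.4 CPM in shUSP8 and 102.6, 111.0 and 119.9 CPM in shCtrl, overlapping groups (log2 fold change -0.05, SE 0.12; edgeR adjusted p = 0.795; 0.07 without shUSP8_2, adjusted p = 0.424). Rpl11 had 474, 338 and 413 CPM in shUSP8 and 456, 454 and 497 CPM in shCtrl, also overlapping (log2 fold change -0.20, SE 0.12; edgeR adjusted p = 0.255).

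Rps6, the substrate of the S6 kinases downstream of mTORC1, had 1073, 954 and 1008 CPM in shUSP8 and 1087, 1081 and 1205 CPM in shCtrl. The shUSP8 values were all lower, though shUSP8_1 lay just below the lowest shCtrl value, and the gene was not called (log2 fold change -0.15, SE 0.06; edgeR adjusted p = 0.0866). Rps27a, made as a fusion with ubiquitin, had a fitted log2 fold change of -0.18, with an SE of 0.08 (edgeR adjusted p = 0.114). Rpsa, also known as the laminin receptor, had a value of -0.08 with an SE of 0.06 (edgeR adjusted p = 0.347).

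Transcript levels spanned a wide range on the per-length scale. Mean TPM over all 6 libraries was 6139 for Rplp1, the highest of the set, and Rpl23a (4470), Rpl13a (4343) and Rps15 (3902) were also among the highest. Rplp1 averaged 6197 ± 520 TPM in shUSP8 and 6081 ± 247 in shCtrl (SD, n = 3 each), a difference smaller than the spread between libraries. Of the tested genes the lowest were the pseudogene Rps3a3 (1.36 TPM), the pseudogene Rpl6l (7.93), Rpl7l1 (57.6), Rpl29 (84.3) and Rps2 (146.3). The low rank of Rps2 and its large share of counts in pseudogene rows stand side by side. Rpl29, a large subunit protein, was called lower (log2 fold change -0.22; edgeR adjusted p = 0.046), but its value with offsets was 0.0028 (0.995), and its TPM was 67.8, 128.2 and 70.1 in shUSP8 and 84.8, 76.0 and 78.8 in shCtrl.

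The named genes outside the pattern had values in the range of the set. Fau, a fusion of a ubiquitin-like protein with a small subunit protein, was called lower (542 ± 69.2 CPM in shUSP8 and 652 ± 26.2 in shCtrl; log2 fold change -0.26, SE 0.08; edgeR adjusted p = 0.0367). Its call was lost with offsets (adjusted p = 0.643) and without shUSP8_3 or any 1 of the shCtrl libraries (edgeR adjusted p up to 0.14). Rpl36al had a log2 fold change of -0.26 (edgeR adjusted p = 0.074), and Rack1, a scaffold on the small subunit, had -0.09 (0.273).

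Within the set, median changes in RNA level were alike with and without the pyrimidine tract, a description with no test. Genes with the tract at an annotated start had a median log2 fold change of -0.22 (13 tested) and those without it -0.22 (47 tested). With the wider window the medians were -0.23 (36 tested) and -0.20 (24 tested). A missing match near an annotated start does not show that an mRNA lacks the motif. These medians therefore do not compare mRNAs with and without it.

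Among other mRNAs known to carry the motif, calls were in the lower direction. Of 13 non-ribosomal TOP genes none was called higher and 5 were called lower (38.5%, against 14.9% of all genes tested), with a median of -0.17. The lower calls were 2 with offsets (15.4%, against 9.86% of all genes) and 1 on log2(TPM + 1), where 4.06% of all genes were called lower. They were 3 without shCtrl_2 or without shCtrl_3, where 9.81% and 10.3% of all genes were called lower. Hnrnpa1, a splicing regulator, had 558 ± 49.6 CPM in shUSP8 and 891 ± 6.99 CPM in shCtrl (log2 fold change -0.67, SE 0.06; edgeR adjusted p = 7.24e-06). Eif4b, a helper of the cap-binding helicase, had 811 ± 7.80 CPM in shUSP8 and 942 ± 50.6 CPM in shCtrl (-0.22; edgeR adjusted p = 0.00978). Both calls held with offsets. Those of Eef1d, an elongation factor subunit (-0.24), and of Gas5, a non-coding host of small nucleolar RNAs (-0.26), were lost there (edgeR adjusted p = 0.0721 and 0.278). The call of Gas5 was also lost without shCtrl_2 or shCtrl_3 (0.0616 and 0.0805).

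Genes that build ribosomes were called higher more often than lower, while their summed level, in which Npm1 and Ncl weigh most, was lower. Of 40 ribosome biogenesis genes 13 were called higher (32.5%, against 17.8% of all genes tested) and 2 lower (5.0%, against 14.9%), with a median log2 fold change of 0.12. With offsets 7 were higher (17.5%, against 12.1% of all genes) and 2 lower, with a median of 0.09. The higher calls were 8 without shUSP8_3 or without shCtrl_3, where 13.6% and 13.9% of all genes were called higher. They were 22 with library totals as the only scaling, under which 25% of all genes were called higher. The summed level of the 40 genes was 5009 to 5339 CPM in shUSP8 and 5396 to 5511 CPM in shCtrl. Without Npm1 and Ncl the sum was higher in every shUSP8 library than in any shCtrl library. Utp4, of the small subunit processome, had 72.3 ± 0.824 CPM in shUSP8 and 60.0 ± 1.84 CPM in shCtrl (log2 fold change 0.27, SE 0.05; edgeR adjusted p = 0.00147). Nob1, the nuclease that finishes 18S rRNA, had 0.28 and Rrp1b, a nucleolar protein, had 0.45, and neither call held with offsets (edgeR adjusted p = 0.086 and 0.0855). The 2 lower genes were the abundant nucleolar proteins Npm1 (1027 ± 33.3 CPM in shUSP8 and 1306 ± 89.5 in shCtrl; -0.35; edgeR adjusted p = 9.19e-04) and Ncl (931 ± 51.4 CPM in shUSP8 and 1078 ± 6.87 in shCtrl; -0.21; 0.0115). Ncl was named after its value was seen.

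For RNA polymerase I, which transcribes rRNA, the count of higher calls was near that of all genes. Of 19 tested genes of its machinery 3 were called higher (15.8%, against 17.8% of all genes tested) and 1 lower (5.26%, against 14.9%), with a median of 0.07. The balance was 5 higher and none lower on log2(TPM + 1), where 19.3% of all genes were called higher and 4.06% lower. It was 2 and 2 with RLE or upper quartile factors. Without shUSP8_1 it was 2 and 3, where 18.7% of all genes were called higher and 16.5% lower. The median turned to -0.025 without shUSP8_1 and to -0.00088 without shUSP8_3. Polr1a, the largest subunit, had 125.5 ± 6.84 CPM in shUSP8 and 92.8 ± 3.47 CPM in shCtrl (log2 fold change 0.43, SE 0.06; edgeR adjusted p = 8.39e-05), and Polr1b, the next largest, had 0.27 (edgeR adjusted p = 0.00424). Cd3eap (0.28; 0.0494) and Polr1d, shared with RNA polymerase III (-0.20; 0.0159), lost their calls with offsets (edgeR adjusted p = 0.0887 and 0.0527). Cd3eap also lost it without any 1 library other than shUSP8_2, and Polr1d without shUSP8_3, shCtrl_2 or shCtrl_3 (edgeR adjusted p up to 0.193 and 0.0778).

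Among 30 translation initiation factors 6 were called higher and 6 lower (20% each, near the 17.8% and 14.9% of all genes tested), with a median of -0.03. With offsets 3 were higher and 2 lower (10% and 6.67%, against 12.1% and 9.86% of all genes). The balance moved with the scaling, as did that of all genes. It was 10 higher and 3 lower with library totals (25% and 9.42% of all genes). On log2(TPM + 1) it was 8 higher and none lower (19.3% and 4.06% of all genes). It also depended on single libraries. Without shCtrl_2 it was 3 higher and 3 lower (13.3% and 9.81% of all genes), and the same without shCtrl_3 (13.9% and 10.3%). Without shUSP8_3 it was 3 higher and 4 lower (13.6% and 10.5% of all genes). Eif3d, a cap-binding subunit of eIF3, was higher (log2 fold change 0.24; edgeR adjusted p = 0.00256), as was Eif2b3 (0.30; 0.00466), while another subunit of the same exchange factor, Eif2b2, was lower (-0.38; 2.02e-04), as was the start codon selector Eif1 (-0.34; 0.0027). All 4 were called with offsets too.

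Genes of mTORC1, MYC and TOP control, a list that includes inhibitors, were called higher more often than lower. Of 24 such genes 7 were called higher (29.2%, against 17.8% of all genes tested) and 1 lower (4.17%, against 14.9%), with a median of 0.04. With offsets 5 were higher (20.8%, against 12.1% of all genes) and 1 lower (4.17%, against 9.86%). Without shCtrl_1 or without shCtrl_2, 4 of the 24 were higher, near the 14.2% and 13.3% of all genes. In both of these fits 1 was lower, where 11.1% and 9.81% of all genes were. With offsets and the replicate block together 2 were higher and 1 lower, where 9.65% of all genes were called higher and 7.53% lower. Larp1 itself had 292 ± 15.1 CPM in shUSP8 and 244 ± 9.82 CPM in shCtrl (log2 fold change 0.26, SE 0.06; edgeR adjusted p = 0.00312). Rptor, the mTORC1 scaffold, had 0.24 (0.00447), and Akt1s1, an mTORC1 inhibitor, had 0.37 (6.85e-04). Eif4ebp1, the translation repressor that mTORC1 inactivates, had 243 ± 7.43 CPM in shUSP8 and 302 ± 20.8 CPM in shCtrl (-0.31; edgeR adjusted p = 0.00143).

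Of 15 p53 target genes 2 were called higher (13.3%, against 17.8% of all genes tested) and 5 lower (33.3%, against 14.9%), with a median of -0.09. With offsets 1 was called higher and 4 lower (6.67% and 26.7%, against 12.1% and 9.86% of all genes). On log2(TPM + 1) it was 3 higher and 3 lower, where 19.3% of all genes were called higher and 4.06% lower. Only 1 was called higher without shUSP8_1, shUSP8_3, shCtrl_1 or shCtrl_3. Pmaip1, a pro-apoptotic BH3 protein, had 95.5 ± 2.48 CPM in shUSP8 and 148.5 ± 14.1 CPM in shCtrl (log2 fold change -0.64, SE 0.07; edgeR adjusted p = 1.41e-05). Trp53inp1 (-0.61; 2.01e-04) and Ccng1 (-0.29; 4.41e-04) were lower as well, and Plk2, a stress-induced kinase, was higher (0.79; 3.79e-05). Mdm2, which Rpl5 and Rpl11 bind, was level, at 203.5 ± 6.21 CPM in shUSP8 and 203.0 ± 11.7 CPM in shCtrl (0.0035; edgeR adjusted p = 0.971), and was named after its value was seen.

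**Figure D5:**
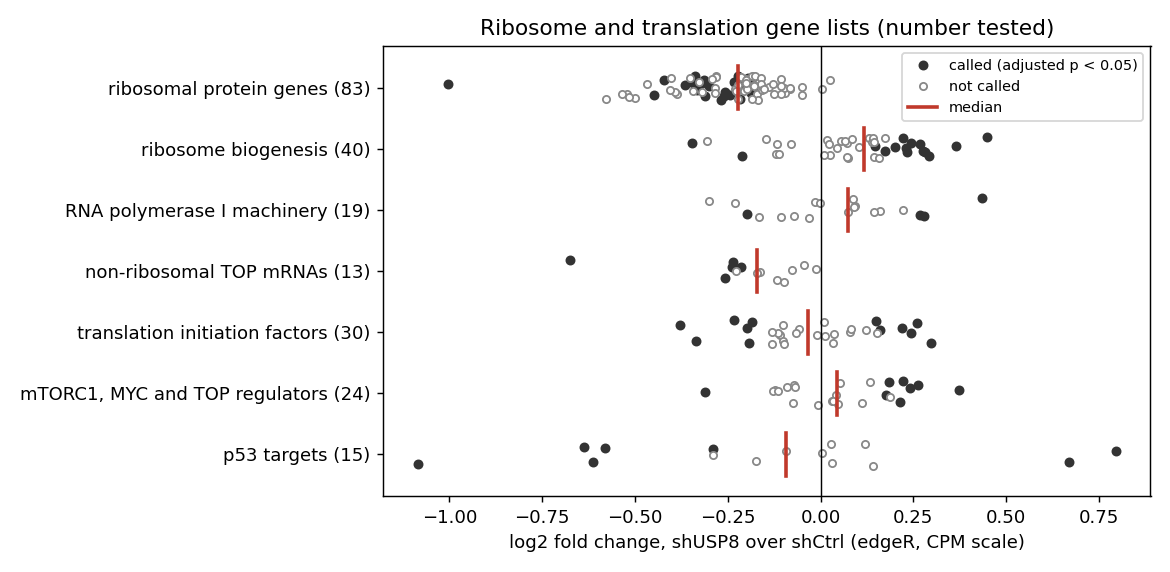
Fitted log2 fold change (x axis, shUSP8 over shCtrl) of tested genes in each list (points, filled where called), with the list median as a red line. The ribosomal protein genes (median -0.22) and the other TOP genes (-0.17) lie left of 0, and ribosome biogenesis genes (0.12) lie right of it.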

How the data were processed

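RSEM estimated counts (expected counts, not normalised) and TPM per gene symbol were used as the authors deposited them, for 6 libraries of total RNA sequenced in pairs, per the labels. RSEM, DESeq2 1.28.1 and mm10 appear in the submitters' processing notes, and the aligner and the annotation are not given in the sources used here. Columns headed KO were read as shUSP8 and those headed WT as shCtrl, from the genotype labels, with the number of each column set equal to that of the title.

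Expected counts were rounded and all genes were fitted in edgeR 4.0.16 (R 4.3.3; TMM factors, filterByExpr with a minimum count of 10 and a minimum total of 15, robust quasi-likelihood F test, Benjamini-Hochberg adjustment over 12440 genes, threshold 0.05). SE is the absolute log2 fold change over the square root of F. CPM values use TMM factors. Offsets were each gene's count over TPM in each library, where TPM was at least 0.1. Fragment length came from a line through count over TPM against transcript length in genes of 1 transcript. Paralog ratios were compared with an exact permutation test. TPM values, on the log2(TPM + 1) scale, went through limma 3.58.1 with genes of at least 1 TPM in 3 libraries, so that folds of low genes are understated. An alternative used DESeq2 1.42.0. Tables and plots were made with pandas 2.3.3, matplotlib 3.10.9, numpy 2.4.6 and scipy 1.17.1 under Python 3.11.15. The fits were tested on simulated data.

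Members, lists and rules were chosen with earlier results of these data known. The text names Usp8, the 10 largest rises and falls among called members, every paralog pair, the 5 highest and 5 lowest members by TPM, members with set roles, and up to 4 called genes per list by smallest p; other names were chosen after values were seen. A few of the genes chosen this way are not reported here. Transcript identifiers were matched to GENCODE M21 (GRCm38) for 98.7% of 142604 transcripts. No libraries of a group were alike within sampling noise (chi-square per gene 2.26 to 18.3). The counting is not stated to use strand.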

Additional observations from a re-analysis of the deposited data

How the results depend on the processing

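No ribosomal protein gene was called higher under any alternative, and 28 were called lower in the analysis reported. The count of lower calls was 13 with library totals only, 15 with the replicate block and offsets together, and 4 on log2(TPM + 1). Of all genes, 9.42%, 7.53% and 4.06% were called lower in these fits. It was 8 on log2(TPM + 1) with the mitochondrial genome left out (5.61% of all genes), an alternative chosen after seeing the data. It was 4 on log2(TPM + 0.1), and 49 of 88 members without the filter on low counts. It ranged from 10 to 49 with each library left out, and was 22 to 33 with RLE, upper quartile, TMM without these genes, DESeq2, limma-voom or pseudogene rows added. The share of all genes called lower was not counted for these last fits, on log2(TPM + 0.1) or without the filter. Their counts therefore have no background beside them. Library totals shifted the median of all genes to 0.07 and log2(TPM + 1) shifted it to 0.12, against -0.0049 in the analysis reported. The distance of the ribosomal protein median from it was -0.22 and -0.16. The cause of the other shifts was not tested.

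Libraries with the same number share only that number per the labels, and deviations of same-numbered libraries correlated at -0.01, 0.08 and -0.05. A replicate block gave 21 lower calls, and the share of all genes called lower was not counted for it.

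Among the genes chosen for naming, called ones that turned direction did so at small values: Fau (0.034 and 0.034) and Rps19 (0.015 and 0.015) on the 2 TPM scales, and Rpl29 on these (0.088 and 0.088), with offsets (0.0028) and with the mitochondrial genome left out (0.051). Rps18 was -0.25 with pseudogene rows added, -0.26 without shUSP8_2 and -0.29 with that library left out and offsets. With libraries left out, the log2 paralog ratio differed by -0.89 to -0.84 for Rpl22l1, 0.19 to 0.31 for Rps27l, 0.16 to 0.25 for Rpl7l1, -0.67 to 0.56 for Rpl3l and -0.049 to 0.087 for Rpl36al.

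Depth does not separate the libraries, whose totals are nearly equal, but genes of a few counts, such as Rpl3l, carry no call in either direction. Counts of members with many pseudogene copies depend on how the estimation split shared reads.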
